A study of Homo sapiens with 3 samples.

Results

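HT1080 is an established human fibrosarcoma line, derived from a malignant tumour of connective tissue and widely used to study pericellular proteolysis and invasion. The array described here holds total RNA of mock-transfected HT1080 cells (title HT1080-Zeo), 1 of 3 Affymetrix arrays in the series. The other 2 arrays hold HT1080 cells stably transfected with RECK, a membrane-anchored inhibitor of metalloproteinases, or with RECK/4NQ, a form of RECK whose N-glycosylated asparagines are replaced by glutamine. Per the labels' protocols, all 3 lines grew in DMEM under Zeocin selection (50 µg/mL) with 10% serum, and labelling started from 8.1 to 15 µg of RNA. The labels do not say whether the mock line is a clone or a pool. The mock array was taken by its title. With 1 array there is no replicate error, no SD and no test, and the levels below describe that array.

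A tumour line of connective tissue origin can be read through its matrix genes, the proteases that cut matrix, the receptors that bind it and the markers of its lineage. Collagens and laminins form fibrils and sheets around cells. Metalloproteinases and the urokinase system degrade them, TIMP proteins and RECK hold metalloproteinases in check, and integrins tie the matrix to the cytoskeleton.

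A gene's level was taken from the brightest of its probe sets listed with exactly 1 gene symbol, which gave 19775 genes. A probe set is a group of short probes read out as 1 MAS5 signal, an intensity on a linear scale. Signals of 2 probe sets also differ with how well their probes hybridise, so ranks and classes describe brightness on the array and do not order the amounts of mRNA of different genes. The 40th percentile of all 54613 non-control probe sets lay at a signal of 13.5, the 90th percentile at 344 and the 99th at 4312. Genes at or above 344 are called bright, and those at or above 4312 very bright. Of all genes, 4807 (24.3%) were below the 40th percentile with all their probe sets, 3655 (18.5%) were at or above the 90th, and 316 (1.60%) were very bright.

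The 40th percentile was set against genes from a tissue far from this one. Olfactory receptors are odorant receptors of the nose. Of 82 such genes on the array, 54 (65.9%) were at or above the 40th percentile. Their median signal was 19.7 and their highest 116, from OR51B5. Of 20 taste receptor genes, 8 were at or above it, with a highest signal of 59.7. BioB, the hybridisation control spiked in at the lowest amount, read 139 to 232 over 6 probe sets, and Cre, spiked in at the highest, 6927 to 12045 over 4. A signal between 13.5 and 116 is therefore described as within the olfactory receptor range, where the array does not separate a gene from receptors of that kind. In all, 6167 genes (31.2%) were above that range.

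**Figure D1:**
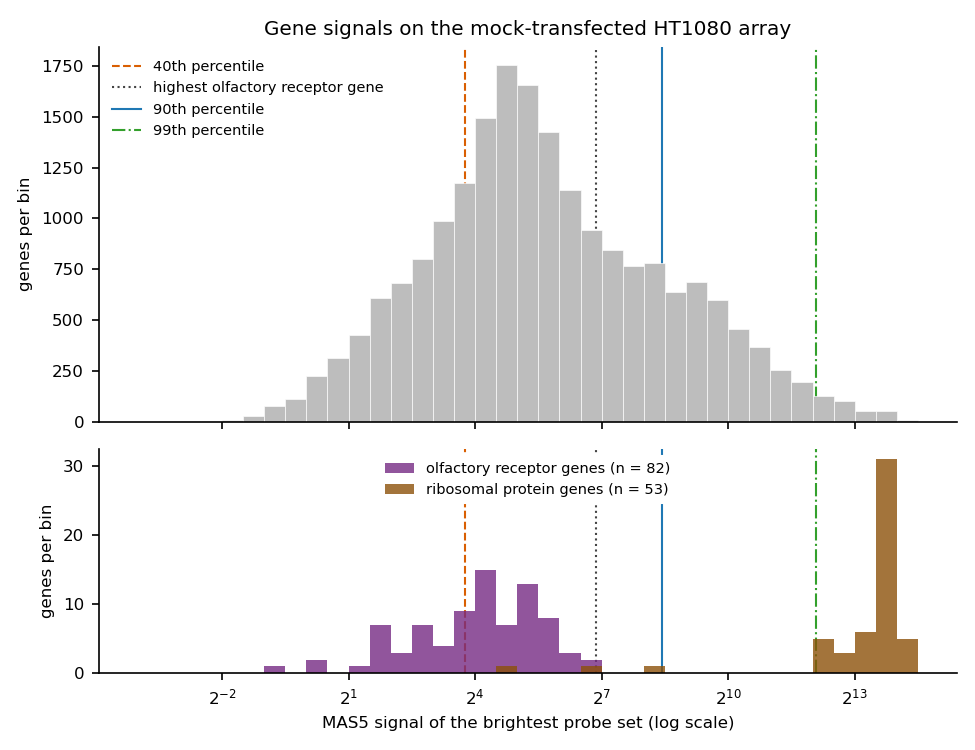
Number of genes by MAS5 signal of the brightest probe set on the mock-transfected HT1080 array (log scale), for all 19775 genes (top) and for 82 olfactory receptor and 53 ribosomal protein genes (bottom), with vertical lines at 13.5, 116, 344 and 4312. Olfactory receptor genes reach 116, and 49 of the 53 ribosomal protein genes are at or above 4312.

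The array was led by genes of protein synthesis, mitochondrial respiration and the cytoskeleton. Of the 40 brightest genes, 25 encode ribosomal proteins and 5 lie in the mitochondrial genome. RPS19 and RPS16, proteins of the small ribosomal subunit, had signals of 18053 and 17909. COX2, here the mitochondrially encoded subunit of cytochrome c oxidase and not the prostaglandin synthase, read 17766 with a second probe set at 17694. COX1 read 16970, and ND4 and ND2, subunits of complex I, 16583 and 16240. ACTB, cytoplasmic actin, read 17558 with its other probe sets at 13693 and 13641. The actin-sequestering peptide gene TMSB10 read 17485, and the tubulins TUBA1B, TUBB4B and TUBB 15952, 14482 and 14287.

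The remaining genes among these 40 were FTL, the ferritin light chain that stores iron (15333), EEF2, an elongation factor (15226), MT2A, a metal-binding metallothionein (14313), S100A6, a calcium-binding protein (14214), and ENO1, a glycolytic enolase (14056). The 40 signals spanned 1.32-fold, from 18053 to 13693, and 34 of them came from probe sets that may hybridise with more than 1 transcript (names ending in _s_at, _x_at or _a_at). Outside the gene lists used here, further bright genes were UBB, a ubiquitin gene (13529), PHB2, a mitochondrial prohibitin (13268), the initiation factor subunit EIF3F (13216) and the splicing factor gene SNRPD2 (12558). DHRS2, a short-chain dehydrogenase, read 11604 and 9636 by its probe sets, and GSTO1, an omega class glutathione transferase, 11543 and 8779. MT1X, a further metallothionein, read 11538.

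Promoter stretches of bright and dim genes are given here because the signal classes were chosen without sequence, and their promoters can be set beside them. The RefSeq promoter table (GRCh38.p14) matched 15360 of the 19775 genes, and 11460 had 1 listed start. Among these, a CpG observed over expected ratio of at least 0.6 in the 300 bases from 250 before to 50 after the start was found in 43.0% of 2776 genes below the 40th percentile (95% exact binomial interval 41.1 to 44.8), 68.5% of 6495 between the thresholds (67.4 to 69.6), 93.4% of 1995 genes from the 90th to the 99th percentile (92.3 to 94.5) and 93.3% of 194 very bright genes (88.8 to 96.4), against 67.1% of all. These intervals cover counting error only. Olfactory receptor genes had such a promoter in 1 of 55 cases. CpG-poor promoters also occurred at bright genes, with ratios of 0.111 at KRT8, 0.0391 at TIE1 and 0.259 at SSX1.

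A TATA box, searched as TATAAA or TATATA with its first base 40 to 20 bases before the start, did not follow that order. It was present on the gene's strand in 6.95% of genes below the 40th percentile (6.03 to 7.96), 4.08% between (3.61 to 4.59), 2.21% from the 90th to the 99th percentile (1.61 to 2.95) and 11.3% of very bright genes (7.24 to 16.7), and in 4.57% of all promoters. Genes holding both motifs, which can overlap, were counted once. On the other strand the share was 1.94% of all promoters, and 6.19% at very bright genes, but TATATA is its own reverse complement and matches both strands at once. TATAAA alone was found in 5.30% of genes below the 40th percentile, 3.31% between, 1.55% from the 90th to the 99th percentile and 7.22% of very bright genes, and on the other strand in 0.611% of all promoters and 2.06% at very bright genes. Without ribosomal protein genes, 11.5% of 156 very bright genes had the box.

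TATA motifs occurred at some bright and at some dim genes. Stretches of 60 bases before the start are printed only for picked genes that hold the motif, so they do not give its share by class. The motif is in capitals, 5′ to 3′ on the gene's strand.
MT2A (14313), chr16:56608524-56608583, plus strand: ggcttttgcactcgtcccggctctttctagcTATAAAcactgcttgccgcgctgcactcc
TMSB10 (17485), chr2:84905596-84905655, plus strand: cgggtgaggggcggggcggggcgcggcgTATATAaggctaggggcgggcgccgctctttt
EEF2 (15226), chr19:3985464-3985523, minus strand: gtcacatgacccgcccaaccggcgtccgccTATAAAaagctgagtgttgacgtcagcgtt
CCN2 (2707), chr6:131951373-131951432, minus strand: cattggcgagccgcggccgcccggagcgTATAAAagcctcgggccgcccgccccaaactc
CKM (6.06), chr19:45322876-45322935, minus strand: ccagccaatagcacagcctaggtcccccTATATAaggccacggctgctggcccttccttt
IFNB1 (1.55), chr9:21077943-21078002, minus strand: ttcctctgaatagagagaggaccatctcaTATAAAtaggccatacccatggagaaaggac
The metallothionein, thymosin, elongation factor and matricellular genes were bright, while CKM, muscle creatine kinase, and IFNB1, interferon beta, were below the 40th percentile. By list, 10 of 18 cytokine genes with 1 start and 6 of 11 skeletal muscle genes held the motif, against 0 of 23 respiratory chain, 0 of 21 proteasome and 0 of 10 blood cell genes and 4.57% of all promoters. On the other strand 4 of the 18 cytokine and 5 of the 11 skeletal muscle genes matched. TATAAA alone was found in 6 of 18 and 4 of 11, and on the other strand in 0 of either list. A match is a description of these letters and not a bound site.

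Ribosomal protein mRNAs are known for a run of pyrimidines at their 5′ end, through which their translation is controlled. CTTTCC, searched on the gene's strand from 15 bases before to 20 after the start, was found in 11 of 41 ribosomal protein genes (26.8%, interval 14.2 to 42.9) and in 1.60% of all promoters. On the other strand it was found in 0 of 41 and in 1.18% of all. Stretches from 30 bases before to 20 after the start show where it lay.
RPS16 (17909), chr19:39435930-39435979, minus strand: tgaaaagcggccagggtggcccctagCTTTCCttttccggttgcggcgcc
RPS14 (14797), chr5:150449720-150449769, minus strand: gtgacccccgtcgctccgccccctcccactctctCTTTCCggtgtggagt
RPL18 (14443), chr19:48619159-48619208, minus strand: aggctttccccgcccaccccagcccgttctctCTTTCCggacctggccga
RPS3 (14648), chr11:75399488-75399537, plus strand: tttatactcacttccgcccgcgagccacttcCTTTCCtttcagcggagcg

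**Figure D2:**
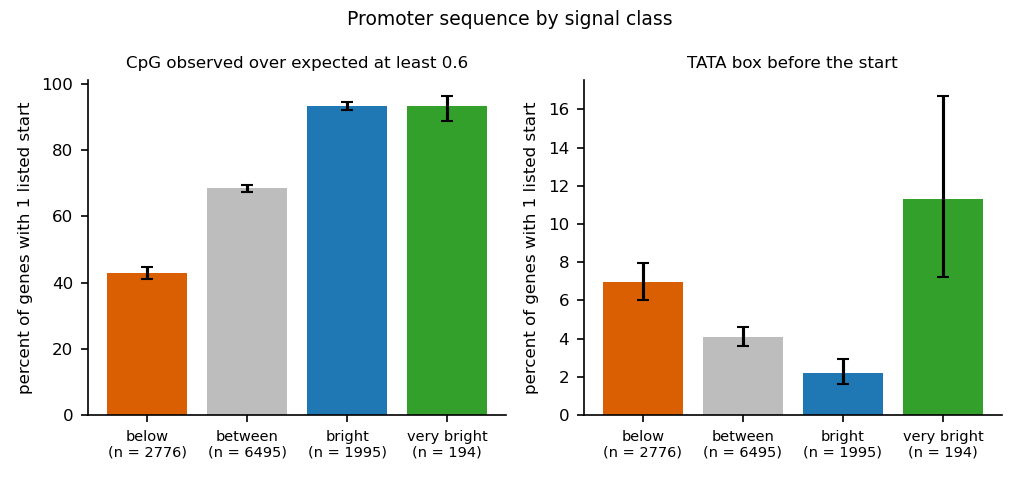
Percent of genes with 1 listed start whose promoter has a CpG observed over expected ratio of at least 0.6 (left) or a TATA box before the start (right), by signal class, with 95% exact binomial intervals as error bars. The CpG share is 43.0% below the 40th percentile and 93.3% at very bright genes, and the TATA share is 6.95% and 11.3% in these classes.

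Housekeeping genes, which every cell needs, were the brightest of the 6 sections. Of 239 with a probe set, 198 (82.8%) were bright against 18.5% of all genes, 111 of these were very bright, and 5 were below the 40th percentile. Without probe sets named _s_at, _x_at or _a_at, which leaves fewer genes measured, 108 were bright and 14 below. Ribosomal protein genes had a median of 13291, and 49 of 53 were very bright. The exceptions were RPL34 (4247, bright), RPL27A (331), RPLP2 (110) and RPL36A (26.3).

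Of 33 respiratory chain genes, 32 were bright, with CYC1, cytochrome c1, at 9254, COX4I1 of complex IV at 9068 and ATP5F1B of the ATP synthase at 8441, while NDUFS1 of complex I read 89.5. Of 22 glycolysis genes, 16 were bright. GAPDH read 13043, 12470 and 11719 by its probe sets, the aldolase ALDOA 10573, the isomerase TPI1 10453, the pyruvate kinase PKM 6659 and the lactate dehydrogenase LDHA 5100. The glucose transporter SLC2A1 read 1387. The muscle form PGAM2 (4.44) and the liver and red cell form PKLR (6.99) were below the 40th percentile.

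Of 30 proteasome genes 25 were bright, with PSMB3, a core subunit, at 8633 and a lowest signal of 83.6 at PSMC6, an ATPase of the cap. The immunoproteasome subunits PSMB8, PSMB9 and PSMB10 read 877, 848 and 615. Of 21 chaperone genes 17 were bright. HSP90AB1, a cytosolic HSP90, read 6708, 5846 and 5719, and CCT7 of the chaperonin that folds actin and tubulin 5322. The small heat shock gene HSPB1 read 4.68 by its only probe set.

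Besides PGAM2, PKLR and HSPB1, the genes below the 40th percentile in this section were EIF4A2, a translation initiation helicase (4.37), and the neural tubulin TUBB2B (2.45). EIF4A2 and TUBB2B are also listed on probe sets shared with other genes, which were not used to name a gene, so these low signals cover only part of their probe sets. Of 20 housekeeping genes not above the olfactory receptor range, 5 are listed on such shared probe sets.

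Cell cycle genes, high in dividing cells, were bright in 19 of 30 cases (63.3%) and in 0 cases below the 40th percentile. Of all genes 18.5% were bright and 24.3% below. The kinase CDK4 read 7536, the nucleotide synthesis enzymes TYMS and RRM2 6468 and 5322, and the replication helicase subunits MCM2 and MCM7 5668 and 5575. The mitotic kinases AURKB and PLK1 read 3421 and 1597. The cyclins CCNB1, CCND3 and CCND1 read 2802, 1582 and 866. The proliferation marker MKI67 read 113 and CCND2 24.7, both within the olfactory receptor range.

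**Figure D3:**
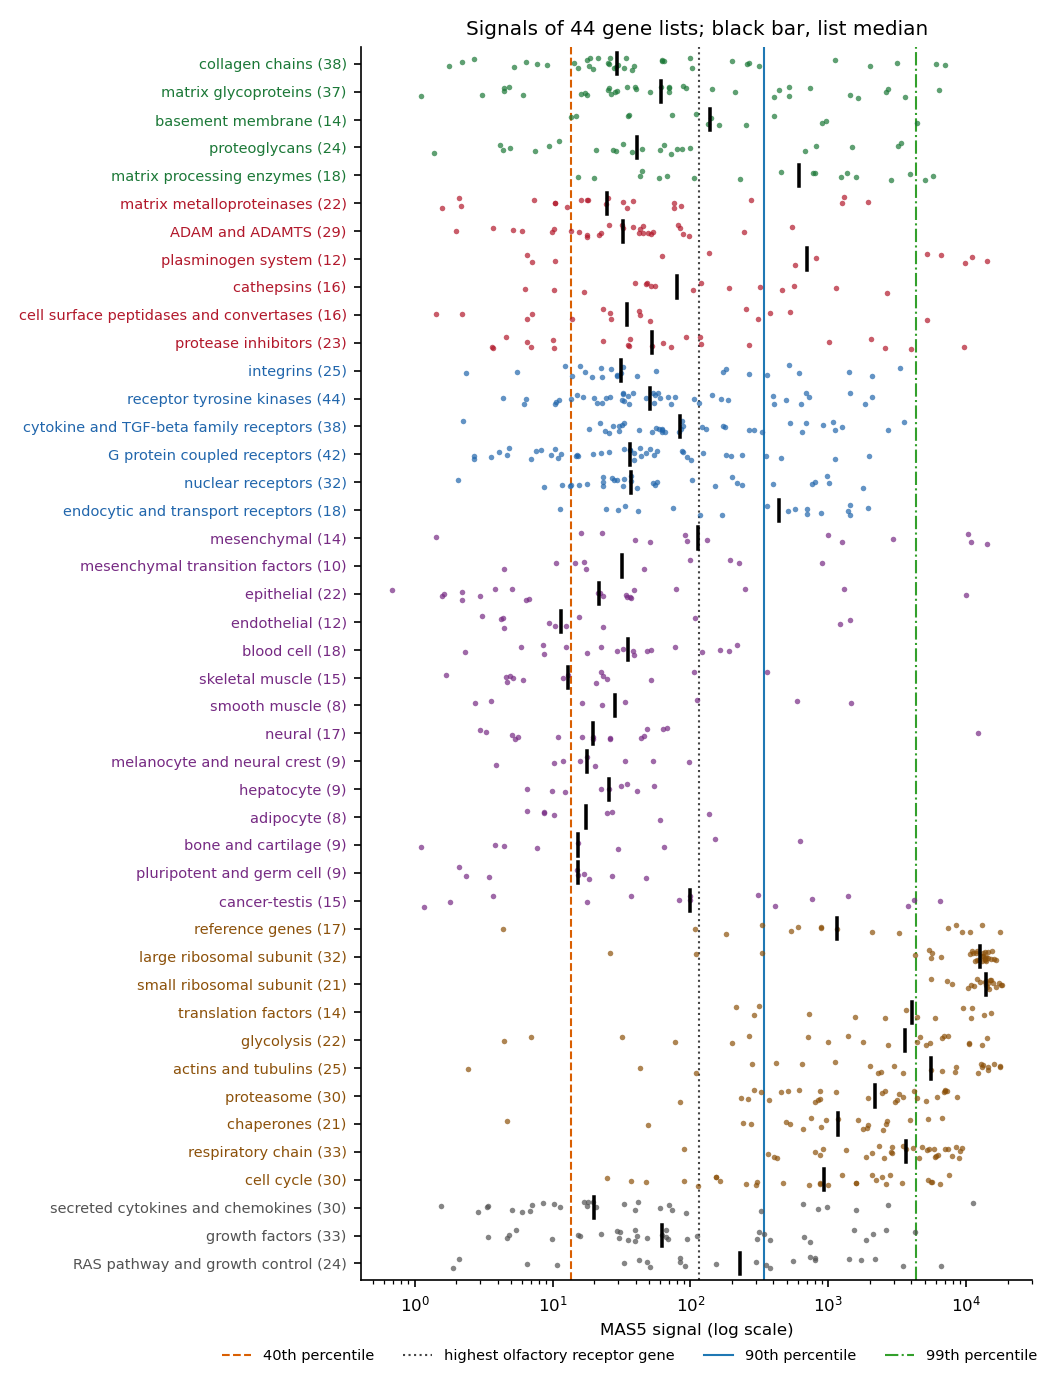
MAS5 signals (log scale) of the genes of 44 lists on the mock-transfected HT1080 array, 1 point per gene, coloured by section, with the list median as a black bar and the number of genes in brackets. Ribosomal protein lists sit highest, with medians of 12684 and 13880, and the endothelial list lowest, with a median of 11.5.

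Among matrix genes, a pair of collagen IV chains, collagen VI and a set of matricellular and crosslinking genes were bright, while most fibrillar collagens were within the olfactory receptor range. Of 131 matrix genes 35 (26.7%) were bright and 20 (15.3%) below the 40th percentile, against 18.5% and 24.3% of all genes. By the median of a gene's probe sets, 23 of the 131 were bright, beside 2266 of all 19775 genes by the same rule, and 42 were below. For these median counts the shares of all genes by the brightest probe set are no base. COL4A2 and COL4A1, the widespread chains of basement membrane collagen IV, read 7074 and 2024, with their other probe sets at 1313 and 803. The other collagen IV chains COL4A3, COL4A4, COL4A5 and COL4A6 read 17.9, 29.8, 25.1 and 37.6, within the olfactory receptor range. COL6A3 and COL6A1, of the beaded filament collagen VI, read 6007 and 1125, and COL6A2 312. The transmembrane collagen COL13A1 read 3127, with other probe sets at 446 and 197.

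The fibrillar chains COL1A1 and COL5A1 read 257 and 201. COL1A2, the partner of COL1A1 in collagen I, read 26.2, 23.8 and 17.3 by its probe sets, COL3A1 18.7 and COL5A2 14.2, all within the olfactory receptor range. Of 38 collagen genes 7 (18.4%) were below the 40th percentile, against 24.3% of all genes. Among the 7 were COL10A1 of growth plate cartilage (7.71) and the collagen IX genes COL9A1 (5.22) and COL9A3 (1.78).

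Of 37 glycoprotein genes 11 (29.7%) were bright, against 18.5% of all genes. The matricellular genes CCN1 and CCN2 read 6357 and 2707, SPARC, which binds collagen, 3627, and FN1, fibronectin, 2631, 2498, 2444 and 1899 by its brightest probe sets. TGFBI, an integrin-binding matrix protein, read 1649 and EFEMP1, a fibulin, 1438. THBS1, thrombospondin 1, and TNC, tenascin C, read 518 and 436. POSTN, periostin, read 16.2, and FBLN2, EMILIN1 and COMP were below the 40th percentile at 3.10, 4.83 and 1.11.

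Laminins are the trimers of basement membranes. LAMB3, a beta chain found in epithelial laminin, was very bright at 4405, and LAMC1 and LAMA5 read 901 and 407. LAMB1 read 73.4, and LAMA2, of muscle laminin, 13.5, just above the threshold. Of the proteoglycans, CD44, the hyaluronan receptor, read 3388 with 6 further probe sets between 3086 and 1971. The syndecans SDC1 and SDC4 read 3199 and 1486, the glypican GPC1 674, and serglycin, SRGN, 819. The stromal proteoglycans VCAN, BGN and DCN read 27.6, 71.8 and 60.5, and LUM and ASPN were below the 40th percentile at 4.95 and 4.17.

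Enzymes that modify collagen were bright in 10 of 18 cases (55.6%), with 0 below the 40th percentile, against 18.5% and 24.3% of all genes. P4HB, a subunit of prolyl hydroxylase and a disulfide isomerase, read 5728, PLOD3, a lysyl hydroxylase, 3948 and SERPINH1, a collagen chaperone, 1241. Of the lysyl oxidases, which crosslink collagen, LOXL2 read 5028 with other probe sets at 212, 6.66 and 4.88, LOXL3 1586, LOXL1 1362 and LOX 453, while LOXL4 read 42.8. The transglutaminase TGM2 read 2848.

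Among the protease and inhibitor lists, the plasminogen system had the highest median, 696 over 12 genes, and 3 metalloproteinases were bright. The 5 very bright genes of that list were PLAU, PLAUR, ENO1, S100A10 and ANXA2, of which only PLAU encodes a protease. Of 118 protease and inhibitor genes 23 (19.5%) were bright and 29 (24.6%) below the 40th percentile, close to the shares of all genes. By the median of a gene's probe sets, 49 were below, for which the shares of all genes by the brightest probe set are no base. PLAU, urokinase, read 9750 and 5479 by its probe sets, and PLAUR, its receptor, 5182, 3228 and 291. Of genes for plasminogen-binding proteins of the cell surface, S100A10 read 10978, with its other probe set at 5.99, ANXA2 6551, and the plasminogen receptor PLGRKT 61.9, within the olfactory receptor range. The tissue activator PLAT read 573, and plasminogen itself, PLG, a liver product, was below the 40th percentile at 10.5.

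MMP9, a gelatinase, read 1947, MMP2, the other gelatinase, 1307 and MMP14, the membrane protease that activates MMP2, 1248 with further probe sets at 591, 485 and 390. The stromelysin MMP3 read 274. The other 18 of 22 metalloproteinase genes (81.8%) were not above 116, against 68.8% of all genes. Of these, 7 were below the 40th percentile, 31.8% of the list against 24.3% of all genes. MMP1, interstitial collagenase, read 32.7, and MMP7, MMP10 and MMP13 read 7.37, 2.11 and 1.58.

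ADAM and ADAMTS proteases shed surface proteins and cut proteoglycans. ADAM19 (546) was the only bright gene of 29 (3.45%), against 18.5% of all genes. Of the 29, 27 (93.1%) were not above 116, against 68.8% of all genes, and 6 (20.7%) were below the 40th percentile, against 24.3%. The main sheddases ADAM10 and ADAM17 read 84.0 and 87.7. Of the lysosomal proteases, CTSA read 2671, CTSB 1134 with further probe sets from 729 to 151, CTSL 567 and LGMN 465, while CTSK, the collagenolytic cathepsin of bone, read 48.1 and CTSC 6.31. The aminopeptidase ANPEP, also known as CD13, read 5182, although its other probe sets were below the 40th percentile. FAP, the fibroblast activation protease, was below the 40th percentile at 1.42.

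Inhibitors were led by TIMP1 at 9692. TIMP2 read 2561, 1426 and 963 by its probe sets, TIMP3 72.0 and TIMP4 3.62. The cystatins CSTB and CST3, which bind cathepsins, read 3956 and 2054, and SERPINE2, an inhibitor of thrombin and urokinase, 1005. RECK read 264 by its brightest probe set and 26.2, 21.7, 11.2 and 5.64 by the others. The Kunitz inhibitors SPINT2 and TFPI2 were below the 40th percentile at 3.71 and 10.0.

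**Figure D4:**
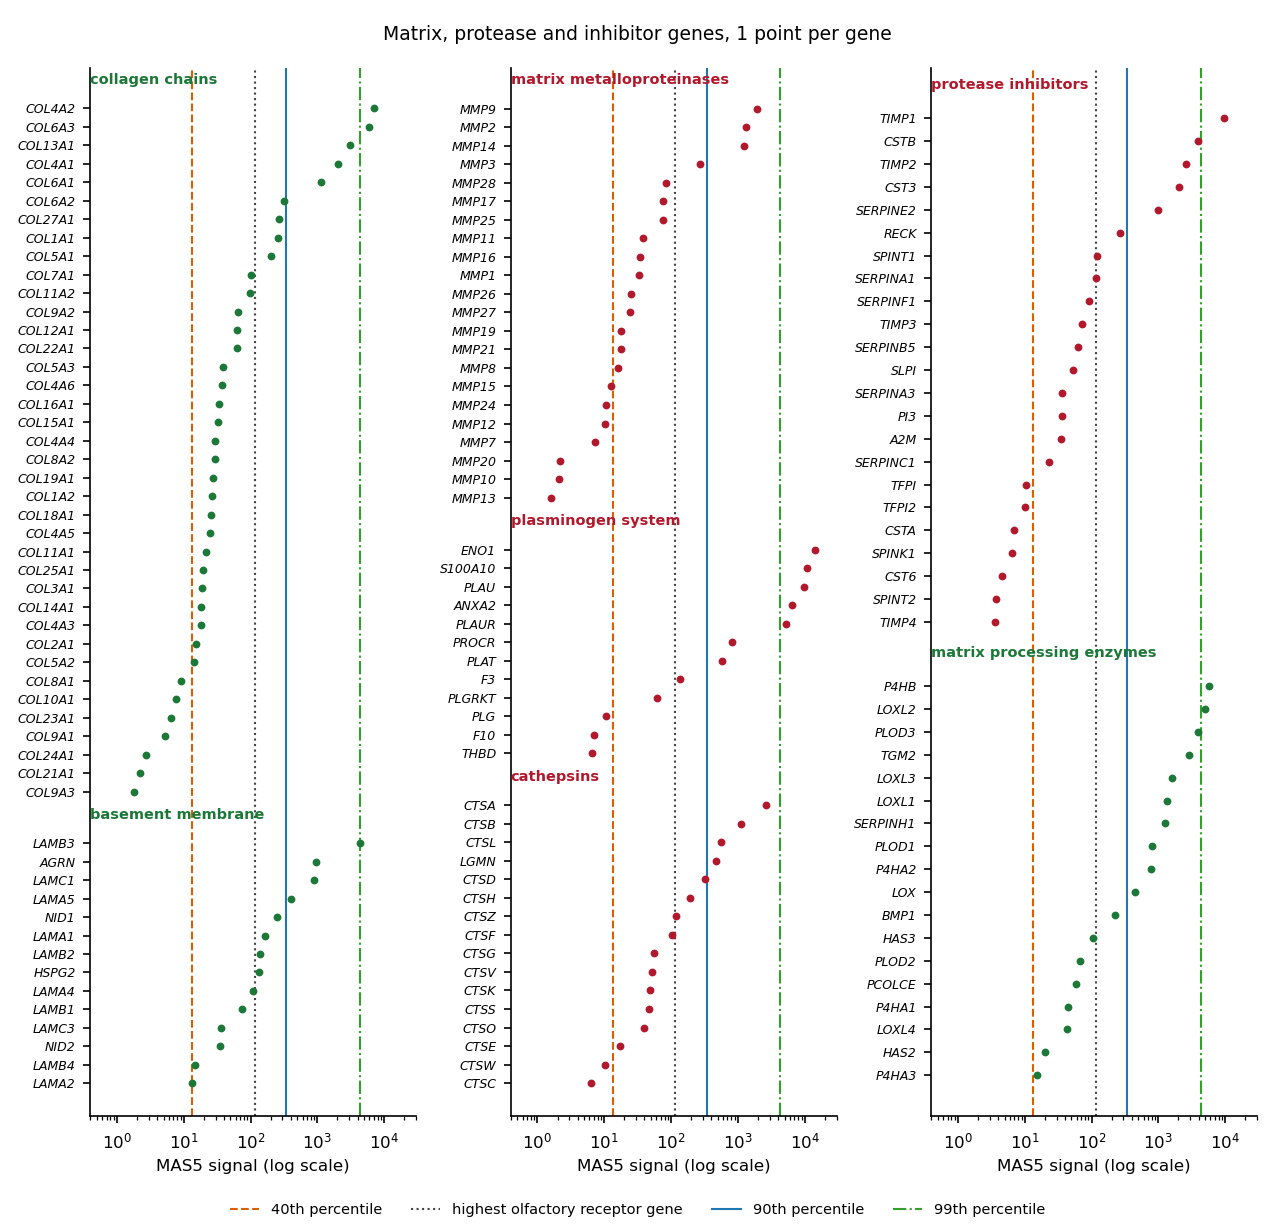
MAS5 signals (log scale) of matrix, protease and inhibitor genes on the mock-transfected HT1080 array, 1 point per gene, ordered by signal within each list, with lines at 13.5, 116, 344 and 4312. COL4A2, PLAU and TIMP1 lie beyond the last line, at 7074, 9750 and 9692, and COL1A2 and MMP1 lie between the first 2, at 26.2 and 32.7.

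Of 199 receptor genes 44 (22.1%) were bright, 0 were very bright, and 29 (14.6%) were below the 40th percentile, against 18.5%, 1.60% and 24.3% of all genes. By the median of a gene's probe sets in place of the brightest, 22 of the 199 were bright, beside 2266 of all 19775 genes by the same rule. By that median 70 were below. The shares of all genes given here are by the brightest probe set and are no base for these median counts. Among integrins the fibronectin receptor alpha chain ITGA5 read 3298, ITGA3, of a laminin receptor, 2066 and ITGB5, a vitronectin receptor beta chain, 1417. The common beta chain ITGB1 read 519, with its other 6 probe sets between 85.2 and 1.13. ITGAV read 56.5, and the leukocyte chains ITGAL and ITGB2 read 19.4 and 22.6, within the olfactory receptor range.

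Receptor tyrosine kinases were bright in 9 of 44 cases (20.5%), near the 18.5% of all genes. AXL, the receptor of GAS6, read 2066 and 708, EPHA2, an ephrin receptor, 1855 and EPHB4 728. TYRO3, IGF1R, EGFR, ERBB2 and FGFR1 read 690, 629, 495, 401 and 396. TIE1, an endothelial kinase, read 1440 by 1 probe set and 13.8 by the other. PDGFRA and PDGFRB, receptors of fibroblasts and pericytes, read 21.0 and 22.9, MET 143, and KIT, FLT3, TEK and KDR were below the 40th percentile at 6.46, 6.25, 4.34 and 10.4.

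The death receptor gene TNFRSF10B, bound by TRAIL, read 3530, and TNFRSF12A, the TWEAK receptor, 2734. The TGF-beta co-receptor ENG read 1252, LTBR 1114 and the interferon gamma receptor chain IFNGR2 1081. TGFBR2 and TGFBR1 read 177 and 88.9. The interleukin-1 receptor IL1R1 was the single gene of 38 cytokine and TGF-beta family receptors below the 40th percentile, at 2.23. The shared receptor chain of the interleukin-6 family, IL6ST, read 52.5.

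G protein coupled receptors had 4 bright genes of 42, namely GPRC5A (1981), the Wnt receptor FZD2 (1115), ADGRE5 (455) and the thrombin receptor F2R (351). These were 9.52% of the list, and 13 (31.0%) were below the 40th percentile, against 18.5% and 24.3% of all genes. Of nuclear receptors, the fatty acid sensor PPARD read 1798, NR2F6 1018, RXRB 986, ESRRA 802 and RXRA 756. The steroid receptors NR3C1, for glucocorticoid, and ESR1, for oestrogen, read 200 and 55.5, and PPARG, of fat cells, 8.61. Transport receptors were brighter as a list, with 10 of 18 bright (55.6%, against 18.5% of all genes). BSG, a metalloproteinase inducer, read 1930, SLC7A5, an amino acid transporter, 1443, the mannose 6-phosphate receptor IGF2R 1429, the transferrin receptor TFRC 883, and CAV1, of caveolae, 577 and 533.

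Of the mesenchymal markers listed, some were bright and others were not. The list was drawn up with earlier results of these data known, so its levels do not test the identity of the line. VIM, the intermediate filament of mesenchymal cells, read 10307 with its other probe set at 8.61, LGALS1, a galectin, 10845 and TPM2, a tropomyosin, 2937. MCAM, an adhesion molecule of mesenchymal and vascular cells, read 1001. CDH2, N-cadherin, read 132. THY1, NT5E and CDH11, surface markers of fibroblasts and stromal cells, read 50.6, 16.1 and 39.7, within the olfactory receptor range, as did S100A4 at 94.4. Of 14 mesenchymal markers 6 (42.9%) were bright and 1, FAP, was below the 40th percentile (7.14%), against 18.5% and 24.3% of all genes. Of 10 transcription factors of the mesenchymal transition 1 was bright, TWIST2 at 907, with its other probe set at 70.1. FOXC2 read 226, with its other probe set at 5.15, and SNAI2 194. SNAI1, ZEB1 and ZEB2 read 46.3, 17.5 and 14.5. In the same list 2 genes, PRRX1 and TCF21, were below the 40th percentile at 10.6 and 4.46.

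Of 136 marker genes of lineages other than mesenchymal, over 11 lists without the cancer-testis genes, 55 (40.4%) were below the 40th percentile. A further 65 were within the olfactory receptor range, and 9 (6.62%) were bright. Of all genes 24.3% were below and 18.5% bright, and 68.8% were not above the olfactory receptor range, against 88.2% of these markers. Among epithelial genes, E-cadherin, CDH1, read 2.22, the adhesion molecule EPCAM 0.682, the splicing regulator ESRP1 2.19 and the keratins KRT5, KRT14 and KRT19 3.84, 6.75 and 1.64. Against these stood KRT18, the keratin of simple epithelia, at 9895 and its partner KRT8 at 1306, each by 1 probe set of the kind that can match similar transcripts. KRT7 read 247.

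Among 12 endothelial genes, TIE1 (1440) and ROBO4 (1212, other probe set 128) were bright, PECAM1 read 108, and CDH5, EMCN, TEK, ESAM, CLDN5, KDR and ERG were below the 40th percentile, with signals from 3.07 to 12.5. Skeletal muscle had 8 of 15 below, among them the factors that specify muscle, MYOD1 (4.63), MYOG (5.19) and MYF5 (4.94), and 1 bright gene, the slow troponin TNNT1 (360). In the smooth muscle list SMTN, smoothelin, read 1456 and 1371, ACTA2, smooth muscle actin, 590 and TAGLN 111, while CNN1 and the regulator MYOCD were below the 40th percentile at 3.55 and 2.76.

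In the neural list TUBB3 read 12252 and 9784, both by probe sets of the kind that can match other tubulins, and the other 16 genes were not above 116. NEFM, STMN2 and ELAVL3, of neurons, read 2.98, 3.29 and 5.08. Blood cell markers had 0 bright genes of 18, with PTPRC, the pan-leukocyte antigen, at 17.8, the myeloid regulator SPI1 at 5.86 and CD14 at 2.33, and the highest signals at LCP1 (217), TRBC1 (190) and HBB (165). None of 9 melanocyte, 9 hepatocyte and 9 pluripotent or germ cell genes was above 116. SOX9, a regulator of cartilage and other progenitors, read 626 and 567, RUNX2, of bone, 150, and IBSP and SP7 3.85 and 4.42.

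Cancer-testis genes, which are normally restricted to germ cells and often switched on in tumours, were bright in 6 of 15 cases. CTAG2 read 6417 and 1771, MAGEA6 4214, SSX1 3759 and 755, MAGEB2 1398, MAGEA1 756 and the melanoma antigen PRAME 408. MAGEC2 read 307. In the same list MAGEA10, SAGE1 and DDX53 were below the 40th percentile at 3.67, 1.80 and 1.16. Members of these families are close in sequence, and the brightest probe sets of CTAG2, MAGEA6, SSX1 and MAGEA1 can match relatives.

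**Figure D5:**
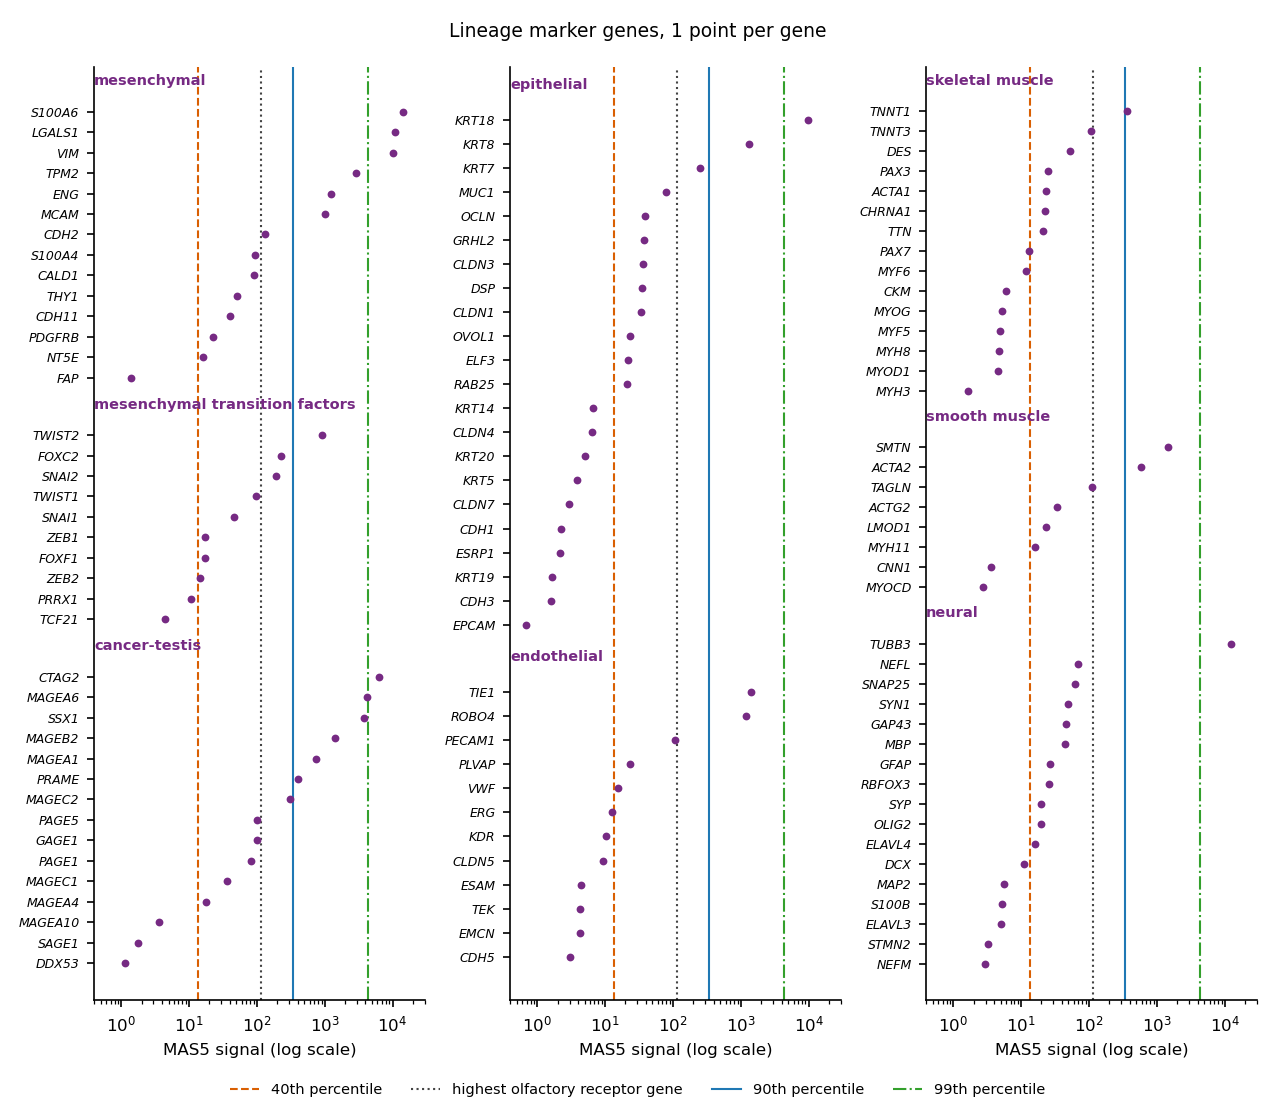
MAS5 signals (log scale) of lineage marker genes on the mock-transfected HT1080 array, 1 point per gene, ordered by signal within each list, with lines at 13.5, 116, 344 and 4312. VIM at 10307 and KRT18 at 9895 lie beyond the last line, and CDH1 at 2.22 and EPCAM at 0.682 at the left end.

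Secreted factors ranged from very bright to below the 40th percentile. MIF, a constitutively stored cytokine, read 11196, GDF15, a stress cytokine, 2692 with both other probe sets not above 116, IL1B, interleukin-1 beta, 1583 and 1238, CSF1, of macrophages, 987 with others at 75.6, 61.1 and 38.8, IL24 845 and IL11 655. IL1A, the other interleukin-1, was below the 40th percentile at 8.49, as were CXCL1 (11.4), CCL2 (3.42) and CSF3 (3.37). IL6 and CXCL8 read 92.9 and 39.5. Of 30 cytokine genes 6 were bright, near the 18.5% of all genes, and 11 (36.7%) below the 40th percentile, against 24.3% of all genes.

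Of 33 growth factor genes 9 (27.3%) were bright, against 18.5% of all genes. TGFB1 read 4257, with its other probe set at 23.7, within the olfactory receptor range. GAS6, the ligand of AXL and TYRO3, read 2611 and 1508, PGF, placental growth factor, 2108, and HBEGF, a ligand of EGFR, 1870. VEGFC and VEGFA, which act on vessels, read 737 and 669. BMP2, BMP4 and EGF were below the 40th percentile at 4.82, 3.38 and 5.41, and HGF read 39.5.

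In the RAS pathway and growth control list 11 of 24 genes (45.8%) were bright, against 18.5% of all genes. FOSL1, an AP-1 subunit induced by sustained ERK signalling, was very bright at 6587, and JUN read 1735, while FOS, induced at once and briefly, was below the 40th percentile at 2.10 by its only probe set. The ERK kinase MAP2K2 read 3479, HRAS 1418 and the feedback inhibitors SPRY2 and SPRY4 800 and 381, whereas the ERK phosphatase DUSP6 read 10.7. The cell cycle inhibitor CDKN1A read 2170 and MYC 353. CDKN2A read 83.6, 21.4 and 7.03 by its probe sets, the neighbouring CDKN2B 1.90, and MTAP, which lies beside them, at most 48.3 over 6 probe sets.

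Within the array, the agreement of probe sets of the same gene is the only measure of spread. Of 10523 genes with several probe sets, 5290 (50.3%) had all of them on the same side of the 40th percentile, and the median span from the lowest to the highest was 2.81 on the log2 scale. That span was 1.38 for genes below the 40th percentile, 2.82 between, 4.26 from the 90th to the 99th percentile and 6.48 for very bright genes. The brightest probe set sets both the class and the top of the span, so this rise is in part fixed by the rule. Genes below the 40th percentile have all their probe sets below it by definition, so their agreement does not show that low signals are more reliable. Of 2130 genes from the 90th to the 99th percentile with several probe sets, 619 (29.1%) had at least 1 below the 40th percentile, and of 176 very bright genes 37 (21.0%). Among genes described above, this held for VIM, TPM2, ACTA2, S100A10, MMP2, ANPEP, CST3, COL6A1, FN1, THBS1, TNC, CD44, SRGN, LOXL2, ITGB1, EGFR, LTBR, GPRC5A, NR2F6, IGF2R, TFRC, GDF15, HBEGF, MAP2K2, CCND3, COX4I1, EIF3F, RPS14 and TUBA1B. Other bright genes had a second probe set above the 40th percentile but within the olfactory receptor range. Among them were TGFB1 (23.7), ERBB2 (19.0), GPC1 (14.4), SERPINE2 (48.0), MCAM (54.0) and ADAM19 (31.5). Read on the other arrays, each with its own percentiles, 71.3% of the 4807 genes below the 40th percentile were also below it in the RECK line and 72.5% in the RECK/4NQ line. Of the 3655 genes at or above the 90th percentile, 92.2% and 93.8% were so there, and 0 were below the 40th percentile in either line. These lines carry a transgene and are not replicates of the mock line.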

How the data were processed

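RNA of 3 HT1080 lines was measured on 1 Affymetrix array each. Per the submitters' processing notes, the authors computed MAS5 signals, 1 linear intensity per probe set. Their scaling target, software version, detection calls and build were not given in the sources used here. Values were used as deposited, without scaling. Of 54675 probe sets, 62 control probe sets were left out, the platform annotation paired 41091 with 1 symbol, 1801 with more and 11721 with none. Through their gene IDs 41043 matched the RefSeq table, and 0 symbols were updated. The number of arrays, here 1, limits the precision.

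The 44 gene lists hold 1040 genes, of which 932 had a probe set with 1 symbol. Text names the 40 brightest genes, members of these lists, the 20 brightest in no list and the genes nearest the threshold. Members and lists were chosen with earlier results of these data known. The olfactory receptor range, CTTTCC and the printed promoters were chosen after seeing the data. Calculations used Python 3.11.15, numpy 2.4.6, pandas 2.3.3 and scipy 1.17.1. Class assignment and motif search were tested on simulated data. Alternatives were the probe set rule, probe set kinds, the percentile base, thresholds and the other arrays. Protein length was not used here.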

Additional observations from a re-analysis of the deposited data

Results flagged for a closer look

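Probe sets outside the gene naming also carried signal. Of 1801 probe sets listed with several genes, 386 (21.4%) were at or above the 90th percentile and 101 at or above the 99th. Of 11721 probe sets with no listed gene, 294 (2.51%) were at or above the 90th percentile, with a highest signal of 19033. Among probe sets with 1 gene the share was 11.6%.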

How the results depend on the processing

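Taking the median of a gene's probe sets in place of the brightest, 2266 of 19775 genes were bright, and 25 of the 40 brightest genes were kept. Genes below the 40th percentile then came to 42 in the matrix, 49 in the protease, 70 in the receptor and 32 in the signalling section. The median of several probe sets cannot exceed the brightest. Bright matrix and receptor genes came to 23 of 131 and 22 of 199. Of 342 bright list members 248 stayed bright and all 158 below stayed below. Without _s_at, _x_at and _a_at probe sets, 10 of the 40 brightest genes were kept, 12 lineage and 108 housekeeping genes were bright, 14 housekeeping genes were below, and 3812 genes lay above the olfactory receptor range; fewer genes were measured (16788). With the 80th percentile as the upper threshold 6542 genes were bright, with 35 protease, 71 receptor and 36 lineage genes. With the 95th there were 1862, with 22 receptor and 14 signalling genes. The 30th percentile as the lower threshold left 16 receptor genes below, and the 50th 44, with 33 matrix genes. On the RECK array 2 housekeeping genes were below. With any listed start, CpG-rich shares were 47.0% below the 40th percentile and 72.5% between. With median probe sets they were 50.5% and 72.2%, and the TATA share below was 5.80%. Counting TATAAA alone, which can only lower the share, gave 5.30% below, 3.31% between, 1.55% from the 90th to the 99th percentile and 7.22% at very bright genes. The other 117 of 150 alternative counts and shares kept within 1.5-fold, or within the interval of the share. No paired analysis was possible because each line has 1 array and no test was run.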

Other observations

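The share of genes below the 40th percentile went with the number of probe sets a gene has on the array. It was 38.7% of 9252 genes with 1 probe set, 17.7% of 5015 with 2, 8.74% of 2780 with 3 and 3.56% of 2728 with 4 or more. A gene with more probe sets has more chances that 1 of them is above the threshold, and the part of this in the counts by list was not tested.

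At the threshold of 13.5 the nearest genes below were TLX2, NCAM1-AS2 and LINC00486, and the nearest above were ABHD8, CLEC7A and LAMA2, each at 13.5 after rounding. On the same probe sets of the RECK and RECK/4NQ arrays, TLX2 read 2.72 and 4.63, NCAM1-AS2 12.9 and 16.8, LINC00486 4.43 and 8.19, ABHD8 3.66 and 4.01, CLEC7A 27.5 and 21.4, and LAMA2 10.5 on both.

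Of 7 genes of the mitochondrial genome with a probe set, COX3 read 2301 and ND6 5839, while ATP6 read 13754 by its brightest probe set and 330 by the other.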
